A study of Mus musculus with 24 samples.

Results

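Hippocampal mRNA of male C57BL/6 pups given morphine at 5 mg/kg together with stress (MS5) was compared with that of untreated pups (Con). The comparison rests on the 10 Agilent arrays labelled with these doses, 5 per group, of the 15 mRNA arrays and 24 arrays of any kind in the series, and on all 55681 non-control probesets. Con pups, dosed at 0 mg/kg, stayed with the dam and were handled little. MS5 pups were assigned to treatment on P5, received morphine before each exposure to apnea, and were kept apart from the dam during the day. All pups were killed on P9, and both hippocampi of a pup were collected in 1 tube. No group received morphine without stress or stress without morphine, so the parts of the drug and of the stress protocol cannot be told apart. Treated pups spent the nights in the home cage with untreated littermates. The litter of each pup is not given in the sources used here, so p-values measure the spread between pups whose relatedness is not known.

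Morphine acts mainly on the mu opioid receptor, which couples to inhibitory G proteins. Stress releases corticosteroids, which act in hippocampal neurons through the glucocorticoid receptor. The hippocampus borders the lateral ventricle, where the choroid plexus, an epithelium that secretes cerebrospinal fluid, is attached along the fimbria. Hypothalamus and thalamus lie below and medial to it, and the meninges cover its surface. A dissected hippocampus can therefore hold some RNA of these neighbours, and lists of their marker genes were read beside those of hippocampal cells. In bulk RNA, fewer cells of a type and less RNA per cell cannot be told apart.

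The array of MS5 replicate 9 went against its label. On that array Xist, the X-inactivation transcript of female cells, lay at 11.34 (log2), against 5.89 to 6.08 on the 14 other arrays of the 3 dose groups. The Y-linked genes Ddx3y, at 6.24 against 11.01 to 11.45, and Eif2s3y, at 6.77 against 12.11 to 12.64, were low there. All groups were labelled male, so results are also given without this array. Spot signals had medians of 121 to 153 on Con arrays and 126 to 151 on MS5 arrays, 72.5 to 79.0% of spots were well above background, and 0 were saturated. Arrays of pups given 2 mg/kg with the same stress (MS2) share the fit and its estimate of spread. Among them replicate 5 was dim, with a median of 58.15 and 67.1% of spots well above background. When arrays were weighted, MS2 replicates 4 and 5 had the lowest weights, 0.258 and 0.36. The arrays came from 2 slides, each of which held arrays of both groups. Slide 1 held Con replicates 15, 17 and 18 and MS5 replicates 8 and 13. Slide 2 held Con replicates 16 and 19 and MS5 replicates 9, 12 and 14. A difference within a slide therefore rests on few arrays, and a gap between the slides cannot be told from a gap between pups. All 24 measured genes of the hippocampal principal neuron list were well above background throughout Con or throughout MS5, but so were the choroid plexus genes, so this does not tell the labelled tissue from its neighbours.

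The largest called rise, and the second largest called fall among probesets with a gene symbol, were read by the probes shown here, which are printed so that the measured stretch of each mRNA can be seen. Avp encodes vasopressin with its carrier neurophysin, and Defb11 encodes a beta-defensin; both proteins are rich in cysteine. Each probe has 60 bases, of which the capitals mark 2 adjacent cysteine codons in a reading frame of 19 codons without a stop. The Avp probe lies at chr2:130406552-130406817 (mm9, minus strand), a span of 266 bases that is longer than the probe itself. The Defb11 probe lies at chr8:23015921-23015980 (mm9, minus strand).
Avp: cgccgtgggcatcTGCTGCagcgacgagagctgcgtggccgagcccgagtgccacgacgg
Defb11: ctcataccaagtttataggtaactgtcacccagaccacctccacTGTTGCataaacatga

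With limma, 127 probesets (0.228% of those tested) changed by more than 1.5-fold between MS5 and Con and had an unadjusted p under 0.05. This is the threshold of the study's methods, and a gene past it is said to have risen or fallen below. Of the 127, 25 were higher (0.0449%) and 102 were lower (0.183%) in MS5. With 1 probeset per gene, 17 of 21983 genes rose (0.0773%) and 74 fell (0.337%). After Benjamini-Hochberg adjustment over all probesets limma called 0 (0%), with a smallest adjusted p of 0.635. Of the 55681 probesets 2173 had an unadjusted p under 0.05, a share below the 0.05 expected where nothing differs. The median difference over all genes was -0.01 (log2). The balance of rises and falls moved with the processing: 294 of 623 were higher with the scanner's processed signal and 132 of 401 with no offset in the background correction. It moved with the arrays too, to 41 of 105 without MS5 replicate 9 and 7 of 61 without MS5 replicate 14.

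The falls were uneven between the MS5 pups. Of the 102 lower probesets, 101 lay below every Con array on MS5 replicate 14, 101 on replicate 9 and 93 on replicate 13, but 30 on replicate 8 and 12 on replicate 12. Replicate 14 was the lowest of the 10 arrays at 91 of the 102 (89.2%), against 9.66% of all probesets. The SD among MS5 arrays exceeded that among Con arrays at 94.1% of the lower probesets, compared with 53.3% of all probesets. The rises were spread differently: 24 of the 25 higher probesets lay above every Con array on replicate 14, 20 on replicate 8, 14 on replicate 9 and 13 each on replicates 12 and 13.

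Choroid plexus genes made up much of the falls. Over 3 lists of 62 measured genes, 58 were lower in MS5, 32 fell (51.6%, against 0.337% of all genes) and 0 rose, with a median difference of -0.70 (log2). The lists were chosen with earlier results of these data known, so this contrast is a description and no test. All 62 were well above background throughout at least 1 group. Relative to the Con mean, the median of the 62 genes was -0.40, 0.33, 0.27, -0.19 and 0.00 (log2) on Con replicates 15 to 19. On MS5 replicates 8, 9, 12, 13 and 14 it was -0.29, -1.08, -0.06, -0.43 and -1.33. Replicates 9 and 14 were the 2 lowest arrays at 45 of the 62 genes, and at 23 of the 32 fallen genes replicates 8 and 12 both lay within the Con range. The summed signal of the lists, on a linear scale, was 405912 to 616789 on Con arrays. On the MS5 arrays it was 455971, 187398, 487163, 359770 and 108398, in the order given above. The genes that fell numbered 19 without MS5 replicate 9, 18 without MS5 replicate 14 and 21 without Con replicate 16, and 31 with slide as a block. Within slide 1 the median difference was -0.30, with 56 genes lower, and within slide 2 it was -0.99, with 55 lower. MS5 replicates 9 and 14 were both on slide 2. How much choroid plexus each sample held was not measured apart from these genes, and its part in the falls was not tested.

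**Figure D1:**
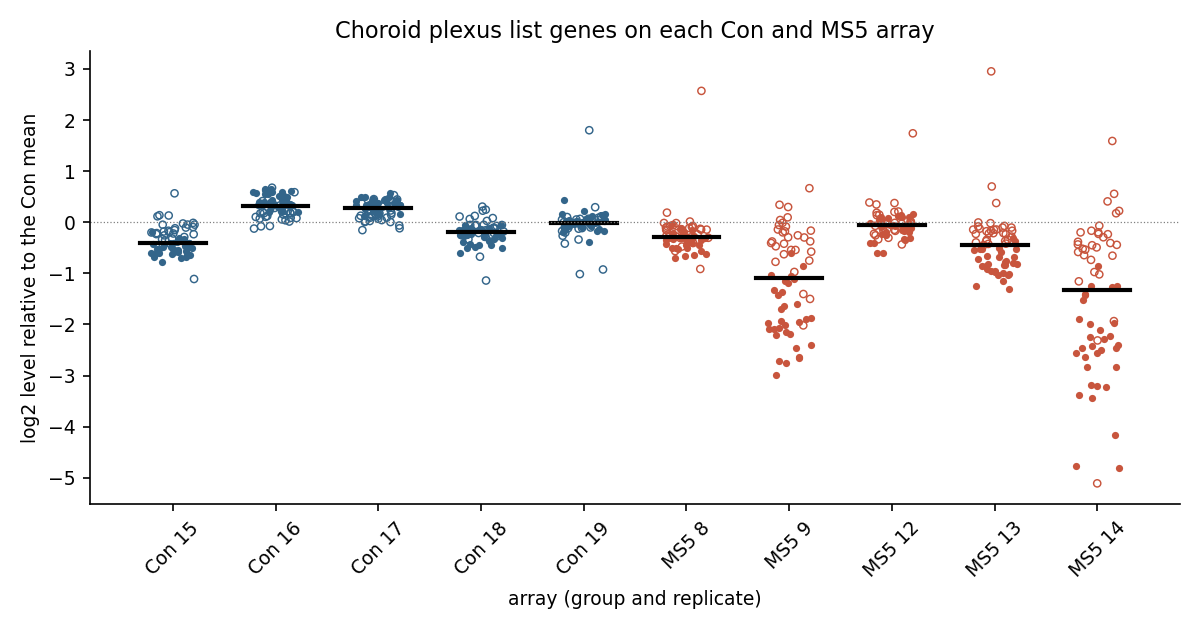
Log2 level of each of the 62 choroid plexus list genes relative to its Con mean (y axis) on each Con and MS5 array (x axis). Filled points are the 32 genes that fell, open points the others, and black lines the medians, which lie lowest on MS5 replicates 9 (-1.08) and 14 (-1.33).

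All 23 choroid plexus transport genes were lower in MS5, and 13 of them fell. These proteins move ions, water and organic anions across the epithelium, and the median difference of the list was -0.71 (log2). The potassium channel Kcnj13 lay at 11.35, 12.25, 12.27, 11.53 and 11.65 (log2) on Con replicates 15 to 19 and at 11.11, 9.60, 11.48, 10.66 and 8.37 on MS5 replicates 8, 9, 12, 13 and 14. Replicate 12 alone overlapped the Con arrays. Kcnj13 fell by 1.56 ± 0.46 (log2, SE; limma unadjusted p = 0.00431; exact permutation p = 0.0159), and it passed the threshold whichever of the 10 arrays was left out. Within slide 1 its difference was -0.83, and within slide 2 it was -2.13.

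The water channel Aqp1, which passes water into the ventricle, lay at 11.31, 12.50, 12.33, 11.24 and 11.84 on Con arrays and at 11.81, 9.39, 11.76, 11.16 and 7.68 on MS5 arrays, in the same order of replicates. Its MS5 arrays on replicates 8 and 12 were among the Con values. Aqp1 fell by 1.48 ± 0.63 (limma unadjusted p = 0.0336; exact permutation p = 0.0952). The call was lost without MS5 replicates 9 or 14, without Con replicates 16, 17 or 19, and with slide as a block, and its difference was -0.81 without MS5 replicate 14. Within slide 1 the difference was -0.14, compared with -2.56 within slide 2.

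The other transport genes that fell ranged from the potassium channel subunit Kcne2 (-1.72 ± 0.70) to the sulfate transporter Slc13a4 (-0.65 ± 0.27). Among them were the chloride channel protein Clic6 (-1.32), the tight junction protein Cldn2 (-1.27), the bicarbonate transporter Slc4a5 (-1.25), the cation channel Trpv4 (-1.11) and the carbonic anhydrases Car14 (-0.95) and Car12 (-0.79). Kcne2, Clic6 and Cldn2 lost the call without MS5 replicates 9 or 14 or Con replicate 16, Cldn2 also without Con replicate 17, and Slc4a5 without MS5 replicate 9. Slc13a4 lost it without MS5 replicate 14 or Con replicates 16 or 17. In a fit of the Con and MS5 arrays alone Aqp1, Kcne2 and Cldn2 lost it too. Without MS5 replicate 14, 5 genes of the list passed, and without MS5 replicate 9 7 passed. The genes whose difference was nearest 0 were the bicarbonate transporter Slc4a10, at -0.12, and the glucose transporter Slc2a12, at -0.20.

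Of 29 measured genes for choroid plexus carriers, receptors and secreted proteins, 28 were lower, 16 fell and the median difference was -0.99. Folr1, the folate receptor of the epithelium, lay at 13.09, 14.41, 14.17, 13.61 and 14.03 on Con arrays and at 13.34, 10.87, 13.45, 12.55 and 9.09 on MS5 arrays. Replicates 8 and 12 were within the Con range and replicate 14 was lowest. Folr1 fell by 2.00 ± 0.65 (limma unadjusted p = 0.00812; exact permutation p = 0.0317). It kept the call whichever array was left out, at -1.31 without MS5 replicate 14, and its difference was -0.68 within slide 1 and -3.08 within slide 2. A second Folr1 probeset fell by 1.29 ± 0.40.

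Steap1, a gene of the Steap family, lay at 10.25, 11.20, 11.06, 10.66 and 10.88 on Con arrays and at 10.24, 8.63, 10.21, 9.57 and 7.97 on MS5 arrays. Every MS5 array lay below every Con array, although replicate 8 did so only just. Steap1 fell by 1.49 ± 0.37 (limma unadjusted p = 0.00119), and by 1.31 without MS5 replicate 9. The calmodulin-like gene Calml4 (-1.49 ± 0.49), the secreted peptide gene Ecrg4 (-1.39 ± 0.50), the sulfatase Sulf1 (-1.17 ± 0.38) and the BMP antagonist Sostdc1 (-1.17 ± 0.42) fell as well. So did Kl, which encodes the co-receptor klotho (-1.11 ± 0.35), Enpp2, which encodes autotaxin (-1.11 ± 0.42), and the coagulation factor gene F5 (-1.13 ± 0.37). Enpp2 lost the call without MS5 replicate 9 (limma unadjusted p = 0.0527).

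Ttr, which encodes the thyroid hormone carrier transthyretin and was named after its values were seen, did not pass the threshold. Its levels were 17.66, 18.15, 18.13, 17.88 and 17.92 on Con arrays and 17.89, 15.93, 17.92, 17.50 and 12.84 on MS5 arrays. Only replicates 9, 13 and 14 lay below the Con range. The difference was -1.54 ± 0.72 (limma unadjusted p = 0.0509; exact permutation p = 0.0873).

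Outside the gene lists 54 probesets fell, and on 46 of them MS5 replicate 14 was the lowest array. Among those with a gene symbol the largest fall was that of Tex22, a testis-expressed gene, which lay at 9.35 to 11.16 on Con arrays and at 9.70, 7.35, 10.34, 8.98 and 6.32 on MS5 arrays. It fell by 1.75 ± 0.62, while its other probeset, dim at a mean level of 6.02, differed by 0.00. The cation channel gene Trpm3 fell by 1.58 ± 0.44, with replicates 9 and 14 again lowest at 7.56 and 7.09. Its 2 other probesets differed by -0.68, past the threshold, and by -0.34, short of it. The protease inhibitor gene Wfdc2 (-1.30 ± 0.48), Wdr86 (-1.30 ± 0.33) and Prr32 (-1.51 ± 0.64) fell too. Prr32 lost the call without MS5 replicates 9 or 14 or Con replicates 16 or 17, and in a fit of 2 groups alone, and the other genes of this paragraph kept it whichever array was left out.

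**Figure D2:**
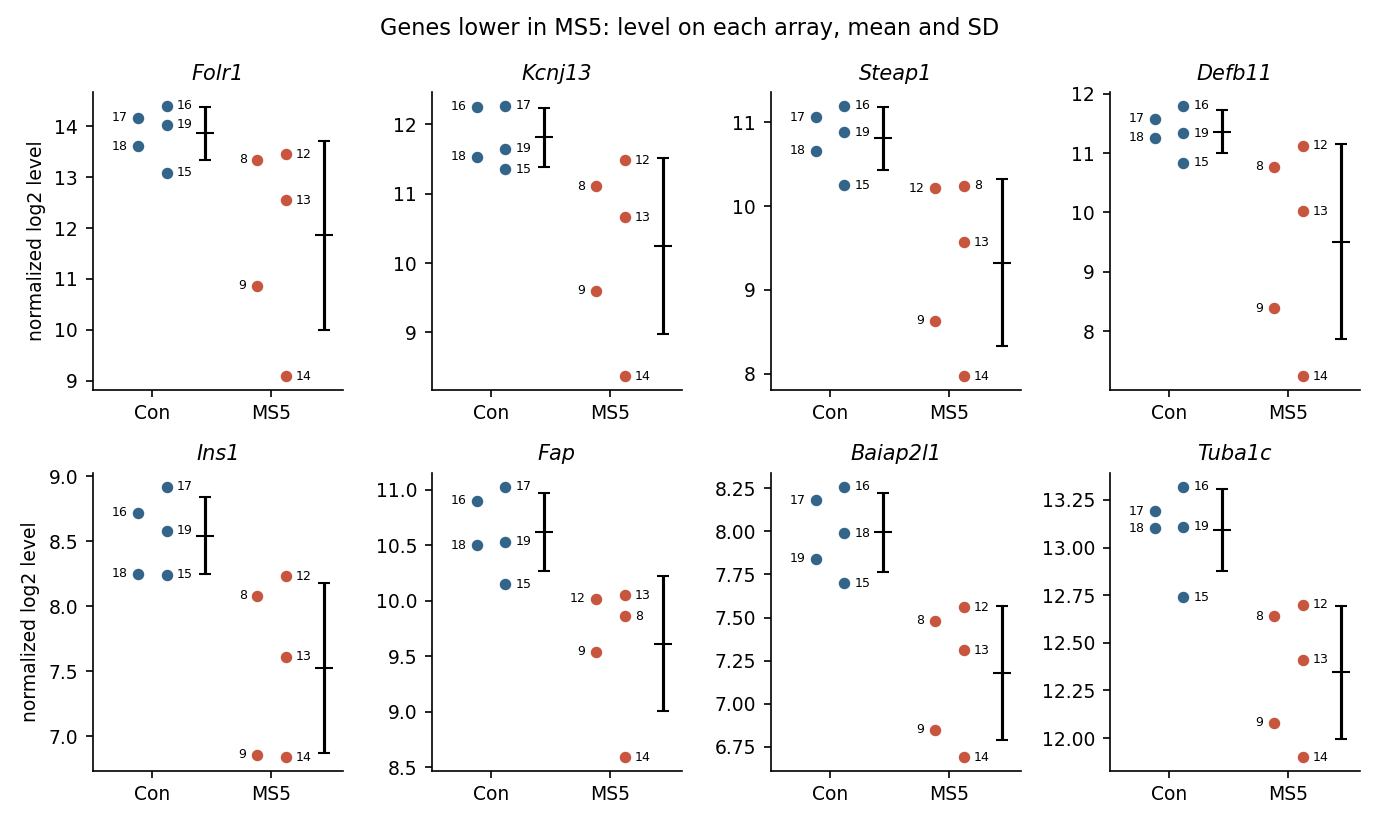
Normalized log2 level (y axis, not starting at 0) of 8 fallen genes on each Con and MS5 array (x axis), with replicate numbers beside the points and the mean ± SD of 5 arrays at the right of each group. MS5 replicates 14 and 9 are the lowest points in each panel, at 9.09 and 10.87 for Folr1.

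The choroid plexus transcription factors were mixed. Of 10 measured genes 7 were lower, 3 fell and the median difference was -0.16. Otx2, the homeobox factor that maintains the epithelium, lay at 11.36, 12.60, 12.43, 11.56 and 11.99 on Con arrays and at 11.68, 9.24, 11.91, 11.40 and 9.43 on MS5 arrays. It fell by 1.26 ± 0.53 (limma unadjusted p = 0.0309), and the call was lost without MS5 replicates 9 or 14 and without Con replicates 16 or 17. Msx1, another homeobox gene, fell by 0.87 ± 0.29 and kept the call without any 1 array. Prdm16, a zinc finger regulator, fell by 0.60 ± 0.24, with the call lost without MS5 replicates 9 or 14 or Con replicates 16, 17 or 19. Six3, a forebrain homeobox gene of the same list, differed by 1.02 ± 0.84 without passing the threshold.

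The ependymal and motile cilium genes and the meningeal genes were lower on the whole, with few calls. Of 30 measured ependymal and motile cilium genes 27 were lower, with a median difference of -0.33, yet 1 fell and 1 rose. The gene that fell was Mia, a secreted protein gene (-0.76 ± 0.31), which lost the call without MS5 replicates 9 or 14 or Con replicates 16, 17 or 19. The gene that rose was Spef2, which is needed for sperm tails and motile cilia (0.59 ± 0.23). Of 25 meningeal genes 22 were lower and 2 fell, namely the procollagen enhancer Pcolce2 (-0.64 ± 0.17) and the matrix protein gene Tgfbi (-0.64 ± 0.19). Neither reached 1.5-fold without MS5 replicates 9 or 14 or Con replicates 16 or 17. The median of the cilium list was -0.03 within slide 1 and -0.70 within slide 2, and that of the meningeal list was -0.34 and 0.01.

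Beta-defensins are small antimicrobial peptides whose genes form clusters. Of 24 measured members 7 were well above background throughout a group and 3 fell: Defb11, Defb9 and Defb35, all on chromosome 8. Defb11 lay at 10.84, 11.80, 11.58, 11.26 and 11.33 on Con arrays and at 10.77, 8.38, 11.12, 10.02 and 7.24 on MS5 arrays. Replicates 14 and 9 were lowest, as for Folr1, and replicate 12 was within the Con range. Defb11 fell by 1.85 ± 0.58 (limma unadjusted p = 0.00618; exact permutation p = 0.0159), and Defb9 fell by 1.12 ± 0.35. Defb35 fell by 0.72 ± 0.13 (limma unadjusted p = 9.19e-05) from levels nearer background, and 3 of its 5 MS5 arrays were well above background. The calls of all 3 held without any 1 array. The sizes depended on the processing: with the scanner's processed signal the differences of Defb9 and Defb35 were -1.99 and -2.30.

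The hormone gene Ins1, in the insulin and insulin-like growth factor list, lay at 8.24, 8.72, 8.92, 8.25 and 8.58 on Con arrays and at 8.08, 6.86, 8.23, 7.61 and 6.84 on MS5 arrays. The groups did not overlap, although MS5 replicate 12 and Con replicate 15 all but met. Ins1 fell by 1.02 ± 0.27 (limma unadjusted p = 0.00205), and by 0.63 within slide 1 and 1.33 within slide 2. Of the 16 measured genes of the list it was the one call, with 10 lower and a median of -0.11. Ins2 differed by -0.52 ± 0.16 and the binding protein gene Igfbp2 by -0.55 ± 0.18.

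At 461 probesets (0.828% of those tested) the 2 groups of arrays did not overlap, with MS5 below Con at 289 and above it at 172. Arrays dealt to the groups at random would separate at a share of 0.00794, so this count is near that of chance. Such separation held at 12 of the 127 called probesets, 9 lower and 3 higher. Besides Steap1, Ins1 and Defb35 the lower ones were Fap, Baiap2l1, Rbm47, Ap1s2, Tuba1c and Gpnmb, and the higher ones were Retnla, Spef2 and a transcript without a symbol. Separation of the arrays fixes the exact permutation p at its smallest value of 0.00794, so it adds no test for these genes.

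Fap, a cell surface protease of fibroblasts, lay at 10.15, 10.90, 11.03, 10.50 and 10.53 on Con arrays and at 9.86, 9.54, 10.02, 10.05 and 8.59 on MS5 arrays, and it fell by 1.01 ± 0.27. Baiap2l1, which shapes actin at the membrane, lay at 7.70, 8.26, 8.18, 7.99 and 7.84 on Con arrays and at 7.48, 6.85, 7.56, 7.31 and 6.69 on MS5 arrays. It fell by 0.82 ± 0.16 (limma unadjusted p = 0.000177), and by 0.56 within slide 1 and 1.02 within slide 2. The alpha-tubulin gene Tuba1c fell by 0.74 ± 0.19, from 13.09 ± 0.22 to 12.35 ± 0.35 (SD, n = 5). Of 2 Ap1s2 probesets 1 fell by 0.76 ± 0.20 and the brighter one differed by 0.13 ± 0.11, so this gene, which encodes a clathrin adaptor subunit, had no single direction. Rbm47, an RNA-binding protein gene, fell by 0.77 ± 0.20, and its difference was -0.56 without MS5 replicate 14, which is under 1.5-fold, and -1.25 with the processed signal.

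Gpnmb and Itgax, genes of activated microglia and macrophages, fell in another pattern. Gpnmb lay at 6.88, 7.19, 6.86, 7.12 and 8.24 on Con arrays and at 6.73, 6.58, 6.59, 6.66 and 6.57 on MS5 arrays. Con replicate 19 was far above the other Con arrays, and the MS5 arrays lay close together. Gpnmb fell by 0.63 ± 0.19 and Itgax by 0.66 ± 0.20, and both lost the call without Con replicate 19, at -0.39 and -0.44. With the processed signal their differences were -1.10 and -1.28. Of 22 microglia and macrophage genes Itgax was the one call, and the median was 0.01. Cd74, the invariant chain of antigen presentation, differed by 0.48 ± 0.14 without reaching 1.5-fold.

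Retnla, a resistin-like gene of alternatively activated macrophages, had the second largest rise. It lay at 7.08, 6.81, 6.65, 6.44 and 7.04 on Con arrays and at 8.59, 7.47, 11.56, 7.26 and 11.69 on MS5 arrays. All MS5 arrays were above all Con arrays, but replicates 12 and 14 were far higher than the other three. Retnla rose by 2.51 ± 0.75 (log2; limma unadjusted p = 0.00473), by 2.97 without MS5 replicate 9 and by 1.92 without MS5 replicate 14. Its difference was 1.21 within slide 1 and 3.31 within slide 2. The difference from MS2 pups, which had received 2 mg/kg with the same stress, was 2.09 ± 0.75 (limma unadjusted p = 0.0145).

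Of 13 measured genes of resistin family and alternative macrophage activation, 2 rose, 10 were higher and the median was 0.04. The other call was Rnase2a, an eosinophil-type ribonuclease gene, which lay at 6.63 to 6.84 on Con arrays and at 7.13, 6.78, 8.11, 6.75 and 8.15 on MS5 arrays. It rose by 0.65 ± 0.25 and lost the call without MS5 replicates 12 or 14. The chemokine gene Ccl8 was highest on the same arrays, at 7.29, 6.38, 8.27, 6.59 and 8.64 against 6.37 to 6.86 on Con arrays, and it rose by 0.89 ± 0.34. Its call too was lost without MS5 replicates 12 or 14. With the processed signal Ccl8 rose by 1.49, and the rise of Rnase2a was likewise over 1.5 times as large on the log2 scale. The macrophage receptor gene Mrc1 differed by -0.11 ± 0.15 and the arginase gene Arg1 by 0.33 ± 0.14, neither past the threshold.

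Avp, Oxt and Trh, hormone genes of hypothalamic neurons, rose. Avp lay at 7.36, 8.18, 7.06, 6.32 and 7.64 on Con arrays and at 11.99, 7.21, 12.47, 6.76 and 10.79 on MS5 arrays. Replicates 8, 12 and 14 were far above all Con arrays and replicates 9 and 13 were among them. Avp rose by 2.53 ± 1.04 (limma unadjusted p = 0.028; exact permutation p = 0.119), and by 3.19 without MS5 replicate 9, 2.47 within slide 1 and 2.25 within slide 2. The call was lost without MS5 replicates 8, 12 or 14 or Con replicate 18.

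Oxt, the oxytocin gene, lay at 7.15 to 7.86 on Con arrays and at 10.44, 7.40, 9.89, 7.27 and 11.62 on MS5 arrays. The same 3 pups were high as for Avp. Oxt rose by 1.79 ± 0.69 (limma unadjusted p = 0.0213; exact permutation p = 0.143) and lost the call without MS5 replicates 8 or 14. Within slide 1 the difference was 1.30 and within slide 2 it was 2.13. Trh, which encodes thyrotropin-releasing hormone, lay at 7.47, 7.62, 8.32, 7.23 and 10.68 on Con arrays and at 11.30, 9.05, 9.16, 10.16 and 11.08 on MS5 arrays. It rose by 1.89 ± 0.83 (limma unadjusted p = 0.0388; exact permutation p = 0.0476). Con replicate 19 lay above 3 of the 5 MS5 arrays, and the call was kept in 3 of 10 refits without 1 array, namely those without MS5 replicates 9 or 12 or Con replicate 19. Within slide 1 the difference was 3.06, compared with 0.61 within slide 2, and the call was lost with slide as a block, at 1.66.

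The list of hypothalamus and thalamus genes held 33 measured members, of which 27 were higher and 3 rose, with a median difference of 0.22. It was 0.10 without MS5 replicate 14, where none of the 33 passed, and 0.25 without MS5 replicate 9, where 3 passed. The summed signal was 17676 to 27613 on Con arrays and 18816 to 36245 on MS5 arrays, and 23 of the 33 genes were well above background throughout a group. Hcrt, Agrp and Pomc, defining genes of other hypothalamic neurons, differed by 0.03, -0.06 and 0.00. They were named after their values were seen, so they do not speak for the list, in which 27 genes were higher. Over the 33 genes the median difference of MS2 pups from Con was 0.20. Between MS5 and MS2 Avp differed by 1.57 ± 1.04 (limma unadjusted p = 0.151) and Oxt by 1.45 ± 0.69 (limma unadjusted p = 0.0544). Trh differed by 1.25 ± 0.83 (limma unadjusted p = 0.153), so none of these 3 genes passed the threshold there. The share of these neighbouring tissues in the rises was not tested.

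**Figure D3:**
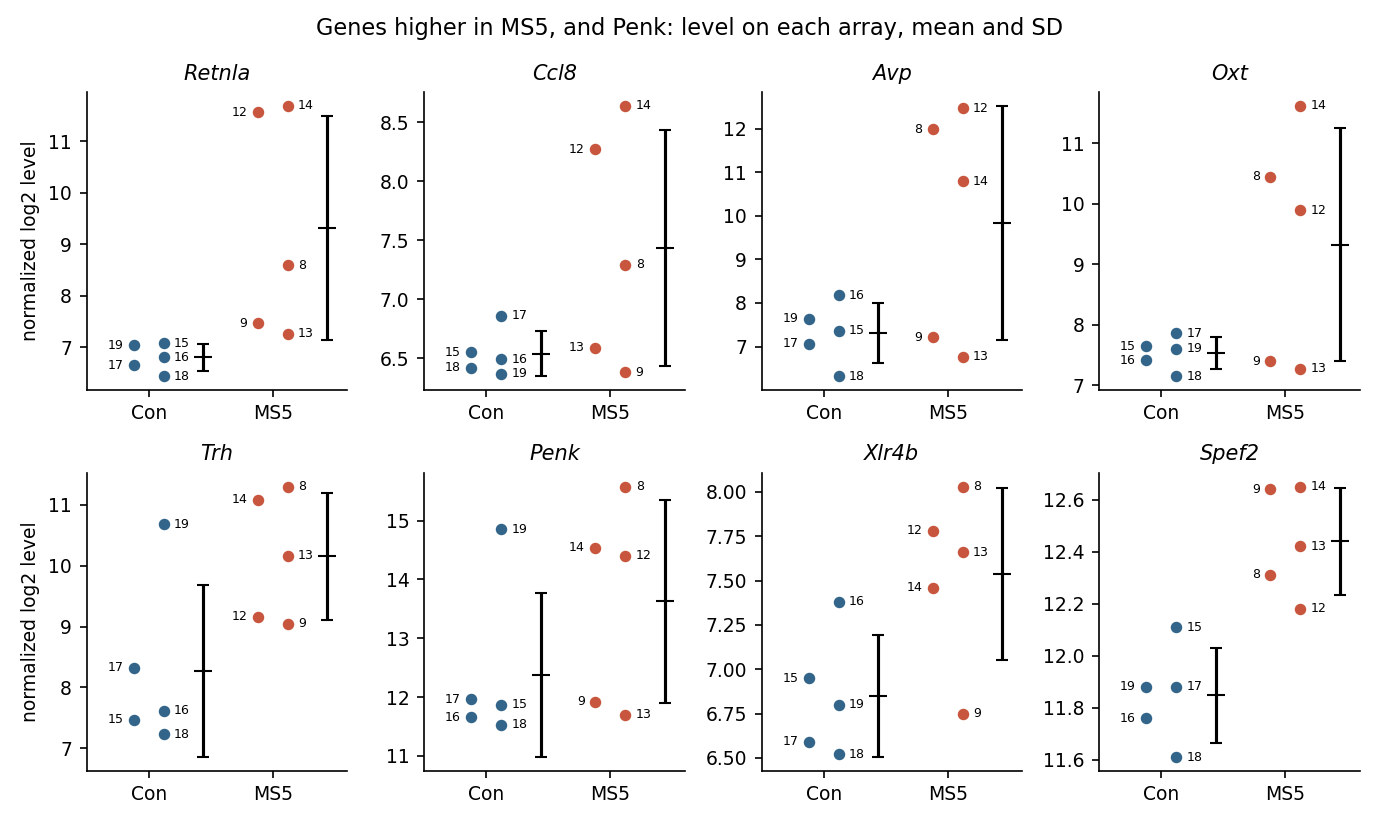
Normalized log2 level (y axis, not starting at 0) of 7 risen genes and of Penk, which did not pass the threshold, on each Con and MS5 array (x axis), with replicate numbers beside the points and the mean ± SD of 5 arrays. Avp and Oxt are high on MS5 replicates 8, 12 and 14, Retnla and Ccl8 on 12 and 14, and Penk also on Con replicate 19 (14.85).

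The remaining rises were smaller. Xlr4b and Xlr4a, X-linked paralogues that similar probes may not tell apart, lay at 6.52 to 7.38 and 6.40 to 7.12 on Con arrays. On MS5 arrays Xlr4b lay at 8.03, 6.75, 7.78, 7.66 and 7.46, so that replicate 9, the array that went against its label, was the lowest. Xlr4b rose by 0.69 ± 0.25 and Xlr4a by 0.66 ± 0.24, and without replicate 9 they rose by 0.88 and 0.86. Xlr4b lost the call without MS5 replicate 8, and Xlr4a without MS5 replicate 13 or Con replicate 17. With the processed signal Xlr4b rose by 1.22, while the difference of Xlr4a was 1.28 and lost the call. Within slide 1 the difference of Xlr4b was 1.16, and within slide 2 it was 0.24.

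Skor1, a transcriptional corepressor gene, rose by 0.82 ± 0.28 and kept the call without any 1 array, with MS5 replicates 12 and 14 highest at 8.04 and 8.39. Prg4, which encodes the lubricant lubricin, rose by 0.80 ± 0.28 at its brighter probeset, while the other differed by -0.14 ± 0.13. The call of Prg4 was lost without MS5 replicate 8. With the processed signal Skor1 rose by 1.37 and Prg4 by 1.71. Myo1h, Vmn1r240, Vmn1r65 and Sema3a, the last a repulsive axon guidance cue, rose by 0.60 to 0.71, with calls kept in 3 to 7 of 10 refits without 1 array. With slide as a block Vmn1r240, Vmn1r65 and Sema3a lost the call, and with the processed signal Sema3a did. Spef2, which lay at 11.61 to 12.11 on Con arrays and 12.18 to 12.65 on MS5 arrays, was separated from Con but lost the call without MS5 replicates 9 or 14 or Con replicates 16 or 18, and with slide as a block, at 0.55.

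Of the opioid genes none passed the threshold. Of 8 measured receptor and peptide genes 7 were higher, with a median difference of 0.15. Penk, the enkephalin precursor gene, lay at 11.87, 11.66, 11.96, 11.53 and 14.85 on Con arrays and at 15.58, 11.92, 14.40, 11.70 and 14.54 on MS5 arrays. MS5 replicates 8, 12 and 14 were high, as for Avp, but Con replicate 19 was the second highest of all. The difference was 1.26 ± 0.89 (limma unadjusted p = 0.179). Oprk1, the kappa receptor gene, differed by 0.80 ± 0.45 (limma unadjusted p = 0.0998), and it passed without MS5 replicate 9, at 1.03. The mu receptor gene Oprm1 differed by 0.15 ± 0.12. Of 33 genes of opioid receptor signalling none passed, and the largest difference was that of the G protein regulator Rgs9, 0.68 ± 0.65, which was also high on Con replicate 19, at 14.62.

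Stress hormone and hypoxia genes changed little. Of 22 glucocorticoid and stress hormone genes none passed 1.5-fold and the median difference was 0.03. The largest was that of the CRH receptor gene Crhr2, -0.53 ± 0.18. Fkbp5, a glucocorticoid-induced chaperone gene, lay at 11.79, 11.83, 11.69, 11.80 and 11.87 on Con arrays and at 11.89, 12.04, 12.01, 11.99 and 11.95 on MS5 arrays. The groups did not overlap, and the difference was small, 0.18 ± 0.04 (limma unadjusted p = 0.000793). Of 20 hypoxia response genes none passed, with a median of -0.02, and Ankrd37, a target of hypoxia-inducible factor, differed by 0.45 ± 0.13. Of 20 immediate early genes 17 were lower and none passed, with Arc, an activity-induced synaptic gene, at -0.43 ± 0.24.

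Markers of the hippocampal cells themselves held no calls apart from Itgax. Of 24 principal neuron genes 22 were lower, with a median of -0.19 that was -0.31 within slide 1 and -0.02 within slide 2. The medians were 0.08 for 20 interneuron genes, 0.02 for 18 astrocyte genes and -0.02 for 22 vessel genes. Of 18 oligodendrocyte genes 17 were higher, with a median of 0.11 that turned from 0.45 within slide 1 to -0.29 within slide 2. Of 14 blood genes 13 were lower, with a median of -0.23, and the haemoglobin gene Hbb-bt differed by -0.49 ± 0.27. The medians of 24 glutamate receptor genes (0.06), 20 GABA receptor genes (0.04) and 39 Hox genes (0.00) lay near that of all genes. Of 23 cell cycle genes 22 were lower, with a median of -0.11, and none passed.

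**Figure D4:**
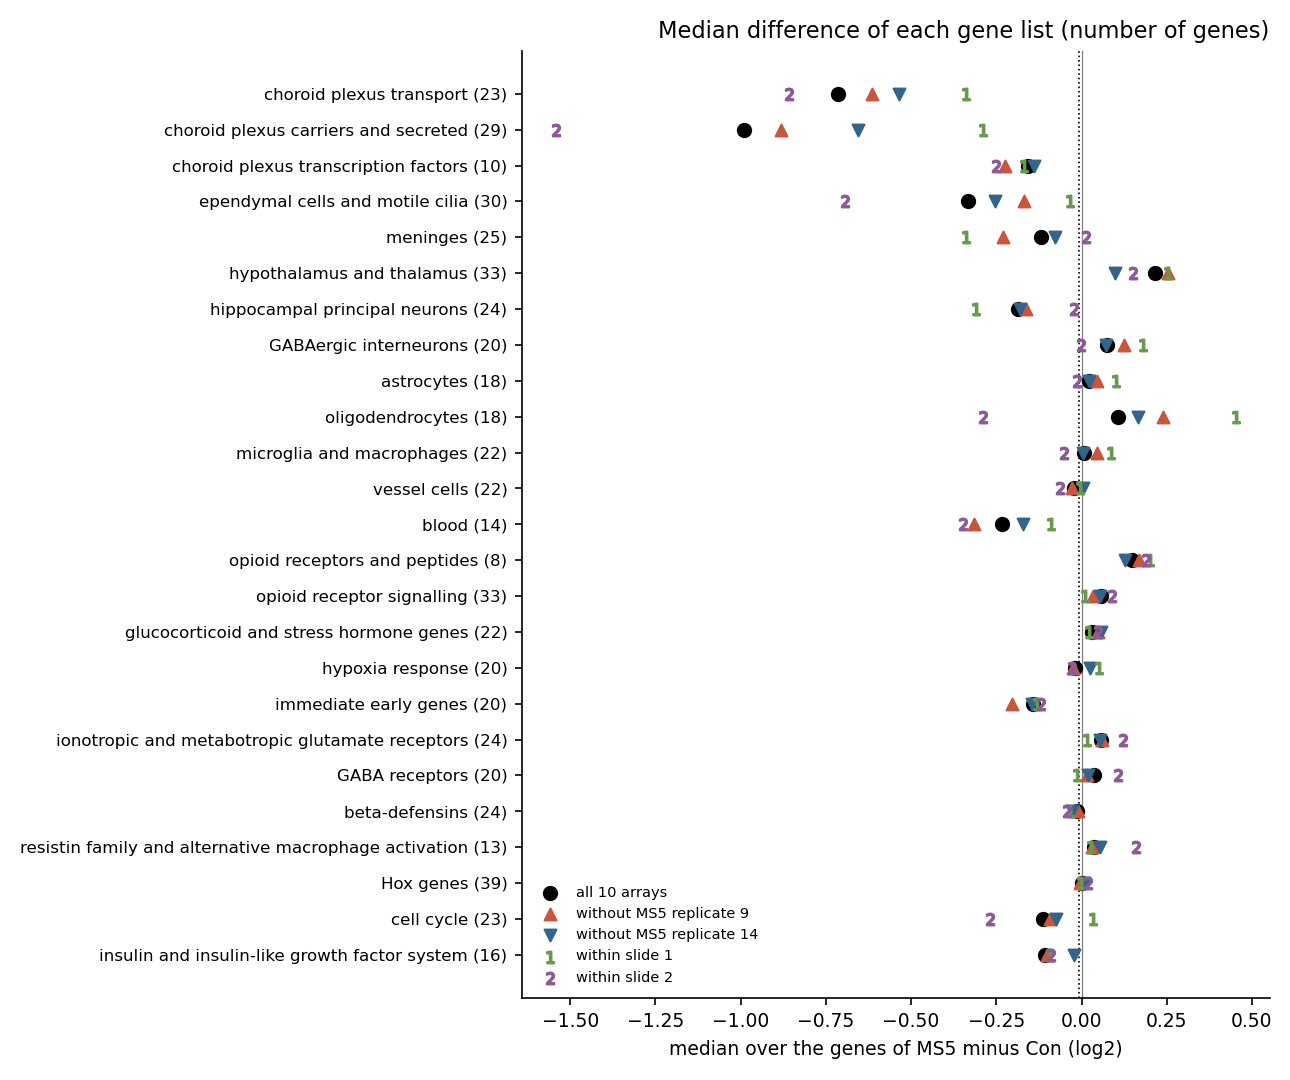
Median over the measured genes of each list (number in brackets) of the MS5 minus Con difference (x axis, log2), for all 10 arrays, without MS5 replicates 9 or 14, and within each slide. The dotted line is the median of all genes (-0.01), and the list of choroid plexus carriers and secreted proteins lies lowest, at -0.99.

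The lower dose gave a reference for the falls of the choroid plexus genes. MS2 pups received 2 mg/kg morphine with the same stress, and their difference from Con over the 62 choroid plexus genes had a median of -0.16, with 0 past the threshold, against 6 of all genes (0.0273%). Tested directly, 22 of the 62 genes were lower in MS5 than in MS2 at the same threshold, against 46 of all genes (0.209%). The 62 genes were chosen with earlier results of these data known, so these shares are a description. Folr1 was lower in MS5 than in MS2 by 1.63 ± 0.65 (limma unadjusted p = 0.025) and Aqp1 by 1.63 ± 0.63 (limma unadjusted p = 0.0215). For Kl the difference of -0.66 ± 0.35 did not pass. Gpnmb and Itgax differed between the doses by -0.03 and -0.09. Other lists with a lower median in MS5 varied in their difference of MS2 from Con. The MS2 median was -0.28 for ependymal and cilium genes and -0.33 for principal neuron genes. It was -0.13 for immediate early, -0.10 for cell cycle, 0.00 for meningeal and -0.04 for blood genes.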

How the data were processed

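Hippocampal RNA of 10 pups was hybridized to 1-colour Agilent arrays, and the 5 MS2 arrays entered the fit as well. The authors deposited the scanner's intensity per spot and a table of log2 values, which they had adjusted for background (normexp) and quantile normalized. With an offset of 50 and the first spot of each probe, the intensities gave these log2 values at all 55821 probes within 5e-09. Control probes were dropped, and the deposited log2 values were used. Groups were compared with limma 3.58.1 (lmFit and eBayes, R 4.3.3) in 1 fit of 15 arrays, with Benjamini-Hochberg adjustment over 55681 probesets. Exact permutation tests were two-sided over 252 assignments. No named gene had an adjusted p below 0.635. Genes were matched to RefSeq symbols (26582 by accession, 2602 by name, 492 by synonym; 26005 probesets without one), and the probeset with the highest mean stood for a gene. Coordinates are those of the array files (mm9). Named genes were the 15 largest rises and falls past the threshold, called probesets without overlap, the called or else 2 largest members of each of 25 lists, and Xist; others named were chosen after their values were seen. The members and lists were chosen with earlier results of these data known. The fit was tested on simulated data. The number of arrays limits the precision. Alternatives were the background offset, the scanner's processed signal, averaged spots, a filter on dim probesets, array weights, slide, 2 groups alone, the mean of a gene's probesets, and leaving out each array. The miR arrays were not used here. 1 named gene was left out of the search for arrays that stand apart and is not reported here.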

Additional observations from a re-analysis of the deposited data

Results flagged for a closer look

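Within a group of 5 arrays, 1 array stood apart from the other 4 by more than 0.71 of the group's whole range at 11 of 196 group values of the named genes. Chance flags about 1 in 20 such groups. Con replicate 19 was the highest array in 8 of the 11. It lay at 8.24 for Gpnmb (other Con arrays 6.86 to 7.19), 14.41 for Rgs2, 9.80 for Sema3a, 14.62 for Rgs9 (others 11.93 to 12.18), 8.40 for Oprk1, 8.48 for Zar1l, 6.08 for Xist and 14.85 for Penk (others 11.53 to 11.96). Among the MS5 arrays, replicate 9 was lowest for Xlr4a at 6.54 (others 7.46 to 7.68) and highest for Xist at 11.34 (others 5.89 to 6.05), and replicate 12 was lowest for the glutamate receptor gene Grik3 at 10.96 (others 11.52 to 11.69).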

How the results depend on the processing

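No paired analysis was possible because the litter of each pup is not given, and replicate numbers identify pups rather than pairs. The count of probesets past the threshold, 127, was 204 with array weights, 401 with no background offset and 623 with the processed signal scaled to the 75th percentile, and it ranged from 61 to 213 when 1 array was left out. The lowest was without MS5 replicate 14 and the highest without MS5 replicate 12, and it was 84 without Con replicate 16. Of the 127, 125, 127 and 120 were still past the threshold under the first 3 settings, and 113 with slide as a block. The smallest adjusted p in limma ranged from 0.204 to 1, and 0 probesets passed under each setting run. The count of probesets without overlap, 461, was 375 to 463 under other processing and 693 to 1324 when 1 array was left out, which leaves fewer arrays to overlap. The 32 fallen choroid plexus genes were 29 to 36 under other processing and 18 to 36 when 1 array was left out, at 18 without MS5 replicate 14, 19 without MS5 replicate 9 and 21 without Con replicate 16. Of 1915 values recomputed for named genes 1 changed direction, Xist at -0.024 without MS5 replicate 9, within a range of -0.024 to 1.34 when 1 array was left out. Of the 68 named probesets past the threshold 30 passed whichever array was left out. Lost calls numbered 31 without MS5 replicate 14, 22 without MS5 replicate 9, 7 with slide as a block, 4 with 2 groups alone and 3 with the processed signal. The cause of these shifts was not tested. Signals near background are compressed by the offset: Defb35 differed by -0.72 with it, -1.65 without it and -2.30 with the processed signal.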
